A study of Rattus norvegicus with 4 samples.

Results

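The basal and suprabasal epidermal keratins are the structural proteins of the living epidermis, and 6 genes were named for this account: Krt5, Krt14, Krt10, Krt2, Krt9 and Krt24. The members were found by their gene symbol in the 4 deposited gene tables. Of the 6 symbols, 5 had a row among the 18957 rows of the series. Krt5 stood under its own symbol in none of the 4 tables used here. A row with the symbol LOC100910084 was described in the files as type II cytoskeletal keratin 5, and it is called the keratin 5 row below. RefSeq's table for the GRCr8 assembly names its gene ID Krt6a-ps1, a pseudogene, so the identity of that row is uncertain and it was not counted as a member.

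Keratins form filaments from pairs of a type I and a type II chain, and the pair a keratinocyte makes changes as it leaves the basal layer. Basal cells make Krt5 with Krt14. Cells above them turn to Krt1 with Krt10, upper layers add Krt2, the thick skin of palm and sole adds Krt9, and Krt24 is a less studied type I keratin of differentiating cells. Footpad skin came from the hindlimb of Sprague Dawley rats, a common outbred strain, whose footpads were irradiated to give the skin injury that radiotherapy causes. The protocol lists 4 irradiations at 10 Gy, on days 1, 2, 4 and 5, with 9 MeV electrons at 500 cGy/min. By that schedule the day 0 group came before any irradiation, the day 3 group after those of days 1 and 2, and the groups of days 6 and 9 after all 4. The sample descriptions disagree in part, since they give day 1 as the day 0 sample's collection day and 1 irradiation day each for the later samples (days 2, 4 and 5), and the groups follow the sample titles. No sex, age, number of animals or pooling is given in the labels. Each day had 1 library, so there was no replicate error, no comparison had a replicate check, and every 95% interval covers counting error only.

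Transcripts were counted by digital gene expression, in which a 21-base tag beginning at a CATG site near the 3' end stands for each transcript. In principle each transcript gives 1 tag, so counts are not scaled by length, and levels are compared here between days and not between genes. The most abundant tag of each found member, and that of the keratin 5 row, is printed because it carries the count; the capitals mark the CATG site.
Krt10: CATGagaaaccaatacgaaca
Krt2: CATGtgaagaagcagtgtaaa
Krt24: CATGgaactgaggcgcacagt
Krt9: CATGgaggaggaagtgggggc
Krt14: CATGgatgtgcacgatggcaa
keratin 5 row: CATGcctcagttcttcatctt
As the files number the sites, these tags lay at the site nearest the 3' end for Krt10, Krt24, Krt14 and the keratin 5 row, and at site 2 for Krt2 and Krt9. They held 96.9 to 97.6% of the copies of Krt10 and 96.3 to 98.1% of those of Krt24. They held 36.3 to 46.1% of the copies of Krt14, 42.1 to 71.6% of Krt2 and 45 to 69.9% of Krt9, so the counts of these members are sums over several tags.

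Some keratin tags differ by only a base or a pair of bases. The sets of Krt14 and Krt9 are printed because the count of a member can depend on them. Positions are counted from 1 at the first base of the tag, and CATG and the differing bases are in capitals. A minor Krt14 tag at site 3 differs from the most abundant tag of Krt16 by C14T.
Krt14 site 3: CATGaaagcatccCtggagaa
Krt16 site 1: CATGaaagcatccTtggagaa
The same Krt14 tag differs from the most abundant tag of Krt17 by A20G and A21G.
Krt14 site 3: CATGaaagcatccctggagAA
Krt17 site 1: CATGaaagcatccctggagGG
It had 13 copies over the 4 libraries, against 123 for that Krt16 tag and 5615 for that Krt17 tag. Krt9 was read at site 2 through a pair of tags that differ by A16G.
Krt9 site 2, less abundant: CATGgaggaggaagtAggggc
Krt9 site 2, more abundant: CATGgaggaggaagtGggggc
How the authors assigned tags that differ this little is not stated. Only tags listed under a keratin row, with at least 10 copies, were compared. Among these, the Krt14 tag concerned had 13 copies, and both tags of the A16G pair were counted under Krt9. How many Krt14 copies were given to another gene or left without a gene cannot be told from this comparison. A minor Krt10 tag at site 3, with 32 copies, also differs from a Krt16 tag, with 106, by G7A and G13C.

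The libraries held 1952921 to 1982608 gene counts, and 39.4 to 43.1% of the tags found 2 or more times had no gene assigned. Tags were not matched to transcripts here, so tags of Krt14 or of another member among the unassigned ones would be missing from its count and from every ratio that uses it. The summed count of 7 fibroblast markers was 16922 on day 0 and 45423 to 63687 later. That of 9 skeletal muscle markers was 4386, 9734, 8 and 8648 on days 0, 3, 6 and 9, with 8 of the 9 listed at 0 on day 6. That of 6 sweat gland and simple epithelium markers was 636, 1070, 130 and 688. That of 8 keratinocyte markers, 5 of them the members, was 57654, 44334, 67564 and 47818. Among 11 hair follicle and nail markers, 3 had a row under their symbol, with 4 to 15 counts in all in a library, and the row LOC683613, described as keratin 71, had 12, 4, 0 and 11. The part of these shifts in tissue make-up in the results was not tested.

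In the day 3 library, Krt10, Krt2, Krt24 and Krt14 were lower than on day 0 and Krt9 was higher. On day 6 Krt10 was 1.33-fold and Krt2 1.32-fold below day 0 and Krt14 was 1.11-fold above it, while Krt24 was 12.6-fold lower and Krt9 was 22.9-fold lower. On day 9 Krt10, Krt2, Krt9 and Krt24 were all lower than on day 0 and Krt14 was not. In bulk skin, fewer cells of a type and less RNA per cell cannot be told apart. The plot of counts by day shows these courses.

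**Figure D1:**
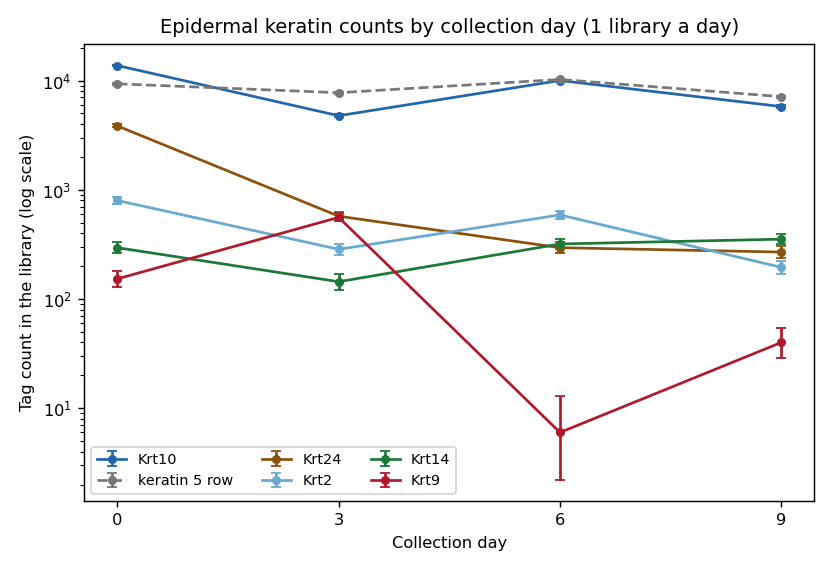
Tag counts (y axis, log scale) of the 5 members and the keratin 5 row (dashed) by collection day (x axis), 1 library a day; bars are exact 95% Poisson intervals and cover counting error only. Krt24 is highest on day 0 and Krt9 on day 3, Krt10 and Krt2 dip on day 3 and again on day 9, and the keratin 5 row stays between 7118 and 10232 counts.

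A gene was called higher or lower by size alone. It had to differ 2-fold or more in scaled counts, with an interval that left out 1, and to reach 50 counts in whichever library held more. In day 3 against day 0, all 5 found members passed the rule, 1 higher and 4 lower. Over the 5342 genes with enough counts, 8.54% were called higher and 7.88% lower, 16.4% in all. Here and below, shares and medians over all genes count every row as a gene, including rows known only by a UniGene cluster. Of the 18957 rows, 11471 had a numeric gene ID. With the total of all tags as the scale, a setting that shifts every gene by 0.11 on the log2 scale, 62.7% of the called genes were higher in place of 52.0%, and with the authors' normalized value 63.2%. In day 6 against day 0, 2 members were lower, none was higher and 3 passed neither side, against 20.6% of 5296 genes called, 7.48% higher and 13.1% lower. In day 9 against day 0, 4 members were lower and 1 passed neither side, against 21.1% of 5345 genes called, 10.7% higher and 10.4% lower. These 3 comparisons share the day 0 library, so its own sampling enters all of them.

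**Figure D2:**
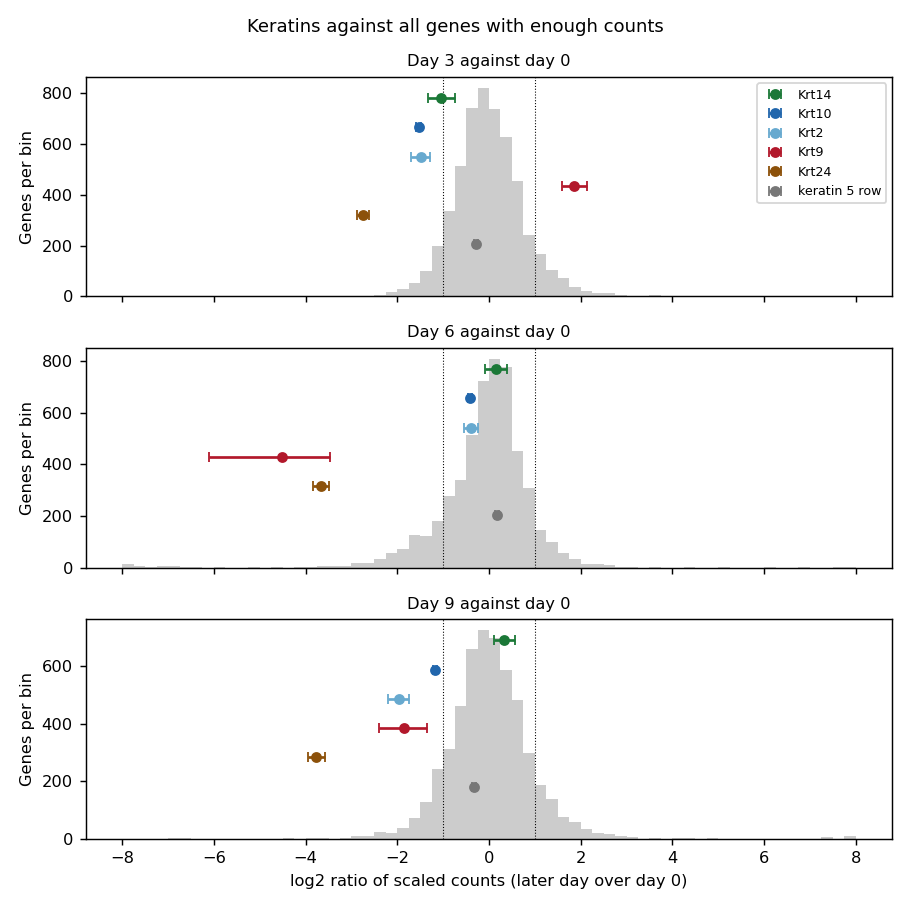
Log2 ratio of scaled counts of each later day over day 0 (x axis) for the members and the keratin 5 row (points, with 95% counting intervals; their height is only for legibility) over a histogram of all genes with enough counts (grey, genes per bin of 0.25; values beyond 8 are put in the end bins). Dotted lines mark 2-fold; 4 members lie left of the lower line on days 3 and 9, 2 on day 6, and Krt9 changes side after day 3.

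Krt10, the main type I keratin of suprabasal cells, had 13717, 4763, 10006 and 5777 counts on days 0, 3, 6 and 9. The day 0 library was highest and the day 3 library lowest, and every neighbouring pair in that order differed by more than counting error. Krt10 was 2.89-fold (2.80 to 2.99) lower on day 3 than on day 0, 1.33-fold (1.30 to 1.37) lower on day 6 and 2.26-fold (2.19 to 2.33) lower on day 9. The smallest step in the order, day 9 against day 3, was 1.28-fold (1.23 to 1.33). At the day 3 ratio, 2.17% of all genes with enough counts lay lower.

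Krt2, a type II keratin of the upper epidermis that also pairs with Krt10, had 798, 285, 589 and 195 counts on days 0, 3, 6 and 9. Its order was that of Krt10 except that day 9 lay below day 3. Krt2 was 2.81-fold (2.46 to 3.23) lower on day 3, 1.32-fold (1.18 to 1.47) lower on day 6 and 3.89-fold (3.33 to 4.58) lower on day 9. Its tags did not all move alike. The most abundant tag, at site 2, had 571, 165, 322 and 82 copies, so its share of the Krt2 count was 71.6, 57.9, 54.7 and 42.1%. On day 9 that tag was 6.60-fold lower than on day 0. The tags of sites 3, 7, 4, 6 and 5 were 2.92-, 2.00-, 1.44-, 1.16- and 1.03-fold lower, with 12 to 32 copies each on day 9. The tag at site 6 had 33, 0, 88 and 27 copies. On day 3 it was not listed, and with 3 copies as the floor it was at least 11.1-fold lower than on day 0. The Krt2 tags of sites 3, 4, 5 and 7 had 12 to 67 copies in the day 3 library.

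Krt24 had 3841, 573, 295 and 269 counts on days 0, 3, 6 and 9. Each later library was lower than day 0 and the last pair could not be separated, since day 9 was 1.08-fold (0.909 to 1.27) lower than day 6. Krt24 was 6.73-fold (6.17 to 7.37) lower on day 3, 12.6-fold (11.2 to 14.3) lower on day 6 and 13.6-fold (12.0 to 15.5) lower on day 9. At its ratio 0.262, 0.944 and 0.225% of all genes with enough counts lay lower. Its tag at site 1 had 3760, 552, 288 and 264 copies and followed the same course.

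Krt9, the type I keratin that marks palm and sole epidermis, had 153, 559, 6 and 40 counts on days 0, 3, 6 and 9. It was the only found member above its day 0 count on day 3, at 3.63-fold (3.03 to 4.38) higher. It was then 22.9-fold (11.1 to 68.5) lower on day 6 and 3.61-fold (2.56 to 5.30) lower on day 9. Day 6 lay 83.2-fold (41.1 to 246) below day 3. With 6 counts, the day 6 level is known only to between 2.20 and 13.1 counts. Several tags took part in the high day 3 count, among them the tags of site 2 with 356 and 87 copies, of site 4 with 42 and of site 10 with 35. Of the 6 sweat gland and simple epithelium markers, 5 were highest on day 3 and all 6 lowest on day 6, as Krt9 was. The exception was Aqp5, the water channel of sweat glands, with 157, 156, 56 and 173 counts, and Krt18 was listed at 0 on day 6. The summed muscle count was also highest on day 3, but only 4 of the 9 muscle markers were highest there alone. All 9 were at their lowest on day 6, with Myh4 at 0 on day 0 as well. Day 3 was also highest alone for 4 of 4 adipocyte, 3 of 4 macrophage, 5 of 7 fibroblast and 2 of 2 red blood cell markers. It was so for 1 of 4 endothelium markers, 1 of 8 keratinocyte markers (Krt9 itself) and no melanocyte or hair follicle and nail marker. The part of these markers in the Krt9 values was not tested.

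The less abundant tag of the Krt9 pair made up 16.4% of the pair on day 0 (21 copies against 107; exact Clopper-Pearson interval 10.5 to 24.0%), 19.6% (16.0 to 23.6%) on day 3 and 43.8% (26.4 to 62.3%) on day 9. On day 6 it had 2 copies against 4, too few to read. The day 9 interval lies above those of days 0 and 3.

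Krt14, the type I keratin of basal cells, had 295, 144, 319 and 353 counts on days 0, 3, 6 and 9. The day 3 library alone was low. Krt14 was 2.06-fold (1.68 to 2.53) lower on day 3 than on day 0, close to the limit of the rule. The log2 ratio of -1.04 became -0.74 with its most abundant tag alone, -0.97 on totals without the 20 most abundant genes, -0.93 on the total of all tags and -0.92 with the authors' value, and each of these ends the call. All 4 tags with at least 5% of its copies were lower on day 3, from 107 to 64, 96 to 47, 66 to 27 and 22 to 4 copies. On day 6 Krt14 was 1.11-fold (0.947 to 1.31) and on day 9 1.26-fold (1.07 to 1.47) above day 0, and day 9 and day 6 could not be separated, at 1.13-fold (0.967 to 1.32).

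The keratin 5 row had 9331, 7736, 10232 and 7118 counts on days 0, 3, 6 and 9, and it did not pass the rule in any comparison. It was 1.21-fold (1.18 to 1.25) lower on day 3, 1.13-fold (1.10 to 1.16) higher on day 6 and 1.25-fold (1.21 to 1.29) lower on day 9 than on day 0. Its count was 31.6 (28.2 to 35.6) times that of Krt14 on day 0, 53.7 (45.6 to 63.8) on day 3, 32.1 (28.7 to 36.0) on day 6 and 20.2 (18.1 to 22.5) on day 9. This ratio was highest on day 3, when Krt14 was low, and lowest on day 9.

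**Figure D3:**
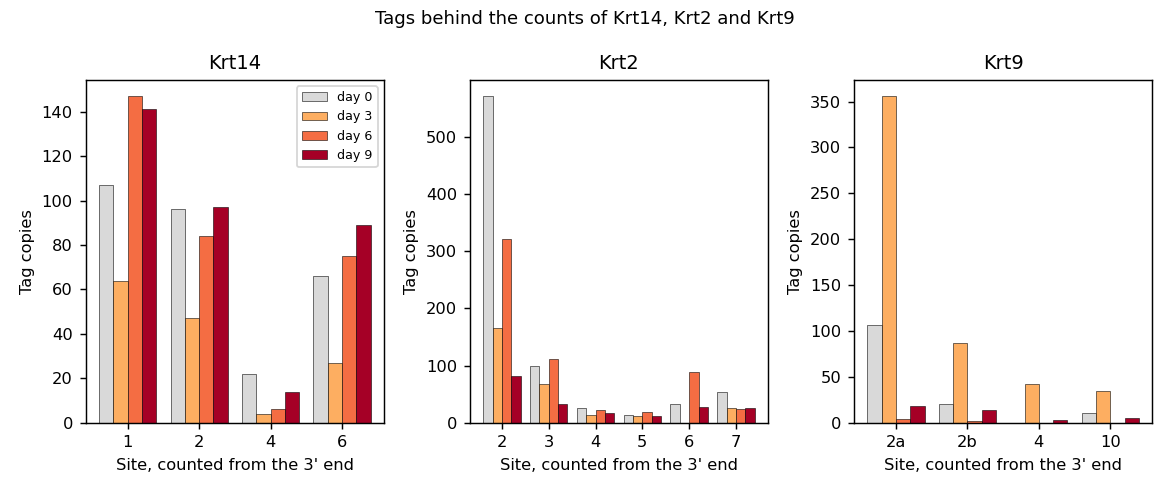
Copies (y axis) of each tag that held at least 5% of its gene's copies in a library, by site counted from the 3' end (x axis), for Krt14, Krt2 and Krt9 on days 0, 3, 6 and 9; 2a and 2b are the pair of Krt9 tags at site 2. The Krt14 tags shown are all lowest on day 3, the Krt2 tag of site 6 has no copies on day 3, and Krt9 is tallest on day 3 at every site shown.

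In day 6 against day 3, 3 members were higher and 1 was lower, against 2.88% of 5101 genes called higher and 6.74% lower, 9.63% in all. Krt14 was 2.29-fold (1.88 to 2.81) higher, Krt10 2.17-fold (2.10 to 2.25) higher and Krt2 2.14-fold (1.85 to 2.47) higher. Krt9 was the lower member, and Krt24, at 1.88-fold (1.63 to 2.17) lower, passed neither side. On the total of all tags, which shifts all genes by -0.13, the log2 ratios of Krt10 and Krt2 were 0.99 and 0.96 and missed the rule, and that of Krt24 was -1.04 and met it. That scale put 17.6% of the called genes on the higher side in place of 29.9%, and the authors' value 16.8%. In day 9 against day 6, Krt2 alone passed, at 2.96-fold (2.52 to 3.50) lower, against 14.4% of 5127 genes called, 10.0% higher and 4.37% lower. Krt10 was 1.70-fold (1.64 to 1.75) lower in that comparison, and Krt9, at 40 against 6 counts, had too few for the rule.

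Ratios of 2 keratins within a library need no scaling between libraries. Krt10, a suprabasal keratin, over the row described as the basal keratin 5 was 1.47 (1.43 to 1.51) on day 0, 0.616 (0.594 to 0.638) on day 3, 0.978 (0.951 to 1.01) on day 6 and 0.812 (0.784 to 0.840) on day 9. Krt10 over Krt14 was 46.5 (41.4 to 52.4), 33.1 (28.0 to 39.3), 31.4 (28.1 to 35.2) and 16.4 (14.7 to 18.3). Both ratios were highest on day 0, but the first was lowest on day 3 and the second on day 9. A further 5 ratios were chosen after their values were seen. Krt10 over Krt2 was 17.2 (16.0 to 18.5), 16.7 (14.8 to 18.9) and 17.0 (15.6 to 18.5) on days 0, 3 and 6, with intervals that overlap, and 29.6 (25.7 to 34.3) on day 9. That ratio rests on Krt2 summed over its tags. By its most abundant tag alone, Krt10 was 2.92-fold lower on day 3 and 1.33-fold lower on day 6 than on day 0. By its own most abundant tag, Krt2 was 3.47-fold and 1.72-fold lower. Krt10 over Krt24 was 3.57 (3.45 to 3.70), 8.31 (7.62 to 9.08), 33.9 (30.2 to 38.2) and 21.5 (19.0 to 24.4), so these suprabasal keratins did not keep a common ratio. Krt1, the type II partner of Krt10, had 21013, 23380, 38510 and 29506 counts and was not lower than day 0 in any later library. Krt1 over Krt10 was 1.53, with an upper limit of 1.57, on day 0 and 4.91 (4.76 to 5.07), 3.85 (3.76 to 3.93) and 5.11 (4.97 to 5.25) on days 3, 6 and 9. Krt1 over Krt9 was 137 (117 to 162), 41.8 (38.5 to 45.6), 6418 (2949 to 17491) and 738 (542 to 1033) on days 0, 3, 6 and 9. Krt14 over Krt15 was 0.651 (0.560 to 0.756), 0.224 (0.186 to 0.269), 0.672 (0.581 to 0.776) and 0.934 (0.805 to 1.08), with day 3 alone low.

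**Figure D4:**
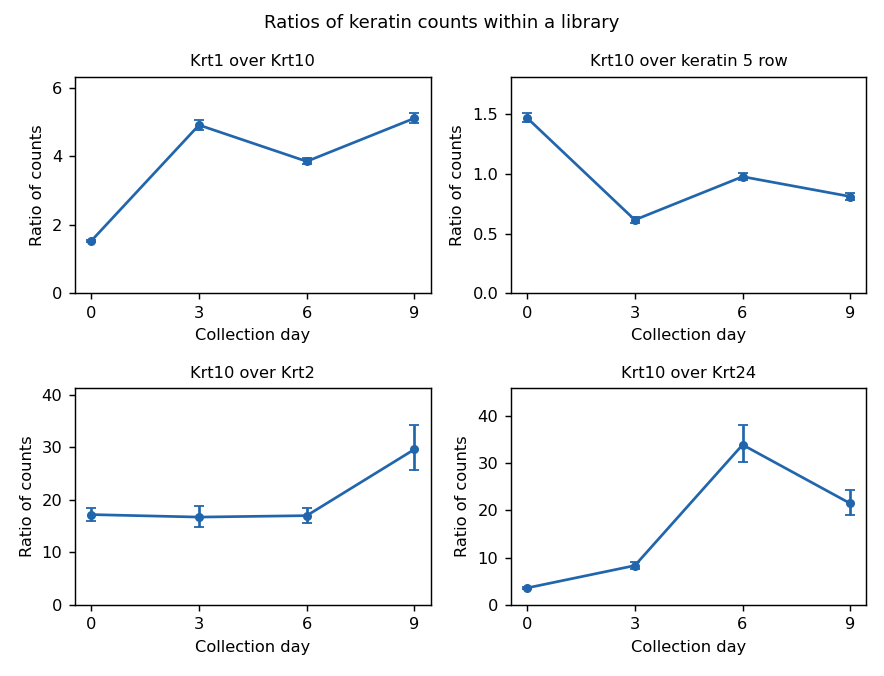
Ratio of the counts of 2 keratins within each library (y axes, from 0) by collection day (x axes), with exact 95% counting intervals. Krt1 over Krt10 is 1.53 on day 0 and between 3.85 and 5.11 later, Krt10 over the keratin 5 row is highest on day 0, Krt10 over Krt2 is highest on day 9, and Krt10 over Krt24 is highest on day 6.

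The members held 0.948% (0.935 to 0.962%) of the gene counts on day 0, 0.321% (0.313 to 0.329%) on day 3, 0.570% (0.559 to 0.581%) on day 6 and 0.340% (0.332 to 0.348%) on day 9. All 26 keratin rows together held 2.56, 2.03, 3.36 and 5.91%. The members' share of those keratin counts was 37.0, 15.9, 17.0 and 5.74%. On day 9 the row LOC683313 held 57.7% of them, with 432, 1071, 5316 and 66660 counts over the days; its description names keratin 6A, which is known from injured epidermis. Krt16 and Krt17, type I keratins of wounded skin, had 0, 0, 37 and 239 and 499, 246, 262 and 4743 counts. Against the floor of 3 counts, Krt16 was at least 83.6-fold higher on day 9 than on day 0. Krt8 and Krt19, keratins of simple epithelia, had 32, 68, 3 and 35 and 84, 264, 5 and 85 counts, and both were highest on day 3, as Krt9 was. Of the 21 keratin rows that are not members, 7 had enough counts to be called on days 3 and 9 and 6 on day 6, and 3 were higher and 1 lower on day 3, 1 higher and 1 lower on day 6, and 3 higher and none lower on day 9. The shares of all genes called on these days were 16.4, 20.6 and 21.1%. Their median log2 ratios, over the 11 with a mean of at least 10 counts, were 0.53, -0.35 and 0.20, beside -0.01, 0.03 and 0.00 over 9876 genes. Krt15, a type I keratin that basal cells also make, had 453, 643, 475 and 378 counts and passed the rule in none of the 5 comparisons.

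**Figure D5:**
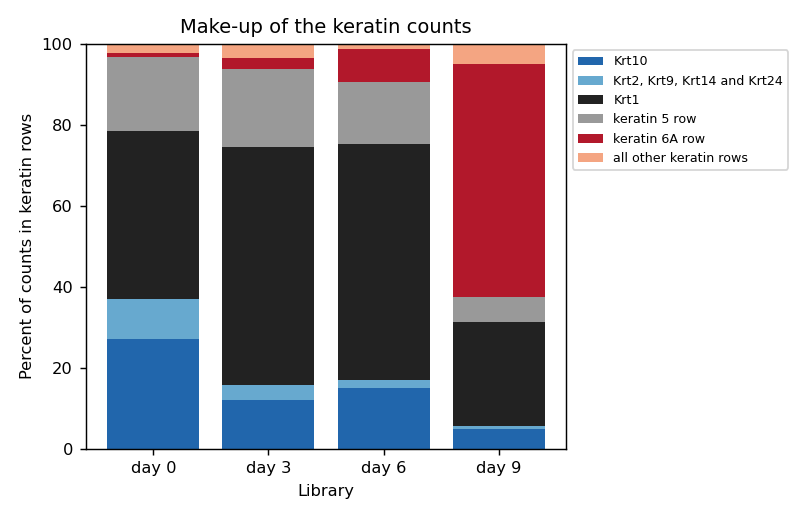
Share of all counts in keratin rows (y axis, percent) by library (x axis), stacked by gene. Krt10 takes 27.0% on day 0 and 5.00% on day 9, and the keratin 6A row takes 57.7% on day 9.

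Among genes that anchor basal cells to the basement membrane, of 11 with a row out of 16 listed, 9 had enough counts, and 1 was lower on days 3 and 6 and none was lower on day 9, against 7.88, 13.1 and 10.4% of all genes called lower on days 3, 6 and 9. Plec, plectin, which ties keratin to hemidesmosomes, had 818, 404, 238 and 503 counts and was 2.03-fold (1.80 to 2.30) lower on day 3 and 3.33-fold (2.89 to 3.87) lower on day 6. Itgb4, the integrin chain of hemidesmosomes, had 838, 1133, 1611 and 1187 counts and passed the rule on none of the later days against day 0, at 1.98-fold (1.82 to 2.15) above it on day 6. The median log2 ratios of the list to day 0 were 0.18, 0.15 and 0.30. For this list and those below, the number listed counts symbols, and some symbols are other names of the same gene.

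Desmosomes join the keratin filaments of neighbouring cells, and of 11 such genes with a row out of 20 listed, 6 had enough counts on days 3 and 6 and 7 on day 9. Of these, 1 was lower on each later day and 1 higher on day 9, against 16.4, 20.6 and 21.1% of all genes called on days 3, 6 and 9. Jup, plakoglobin, was 3.18-fold (2.94 to 3.45), 3.00-fold (2.77 to 3.26) and 2.07-fold (1.93 to 2.22) lower on days 3, 6 and 9. Dsg3, the desmoglein of lower layers, had 27, 17, 23 and 66 counts and was 2.54-fold (1.62 to 4.18) higher on day 9. The list medians on the log2 scale were -0.66, -0.22 and -0.43.

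Late differentiation genes had 11 with a row out of 22 listed, and all 11 had enough counts. On day 3, 3 were lower (Calml3, Tgm1, Tgm3), against 7.88% of all genes called lower. On day 6, 2 were higher (Kprp, Lce1f) and 1 lower (Tgm1), against 7.48 and 13.1% of all genes. On day 9, 2 were higher (Cnfn, Klk7) and none lower, against 10.7 and 10.4% of all genes. The list medians on the log2 scale were -0.60, 0.08 and 0.07. Calml3, a calmodulin-like protein of the epidermis, was 2.38-fold (2.25 to 2.52) lower on day 3, and Cnfn, cornifelin of the cornified envelope, was 2.80-fold (2.56 to 3.06) higher on day 9. Tgm1, which cross-links the envelope, had 304, 111, 110 and 224 counts. On day 9 Cnfn and Klk7 were called higher while Krt10, Krt2, Krt9 and Krt24 were called lower.

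Transcription factors of keratinocytes had 16 with a row out of 22 listed symbols, and 11 had enough counts. Of these, 1 was higher and 1 lower on each later day, near the 16.4 to 21.1% of all genes called. The list medians on the log2 scale were -0.17, -0.19 and -0.14. Klf4, a factor of epidermal differentiation, had 2328, 1052, 946 and 1108 counts and was 2.22-fold (2.07 to 2.39), 2.39-fold (2.22 to 2.58) and 2.00-fold (1.86 to 2.15) lower. Notch1, a receptor that drives basal cells to differentiate, had 67, 150, 214 and 139 counts and was 2.22-fold (1.66 to 3.02), 3.27-fold (2.49 to 4.39) and 2.17-fold (1.62 to 2.96) higher, each on days 3, 6 and 9. Of 9 genes of keratin modification and turnover with a row (13 listed), 4 had enough counts, and none was called on day 3, 1 was higher on day 6 and 2 on day 9, against 7.48 and 10.7% of all genes called higher on those days. Ubb, a ubiquitin gene, had 321, 191, 1529 and 1663 counts, and Hspb1, a small heat shock protein, had 66, 44, 60 and 203. The list medians on the log2 scale were -0.34, -0.03 and -0.11.

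For each member, the genes most like it were taken by the Euclidean distance over its 3 log2 ratios to day 0, among 2858 other genes with at least 100 counts in a library and an established symbol. Nearest to Krt10 were Rab27a (distance 0.30), Cry2 (0.34) and Unc45a (0.37), and nearest to Krt2 were Tmem55b (0.35), Acer1 (0.38) and Prrc2a (0.43). Nearest to Krt14 were Zswim4 (0.11), Fam46b (0.28) and Cwh43 (0.28). Krt9 and Krt24 had no gene within 0.5: Krt19, Pygm and Atp1b1 were nearest to Krt9, at 2.05, 2.23 and 2.40, and Comp, Ckmt1b and Dapl1 were nearest to Krt24, at 1.22, 1.45 and 1.92. Among the members the closest pair was Krt10 and Krt2, at 0.78, and the farthest was Krt9 and Krt14, at 5.92. All distances rest on 4 libraries that each enter every gene.

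Promoter sequences are printed for Krt10 and Krt2 because their counts, summed over tags, kept a like ratio on days 0, 3 and 6. That ratio was chosen after its values were seen, and the most abundant tags alone did not keep it. The sequences run from 250 bases before to 50 after the start and come from RefSeq's GRCr8 table, which held 5 of the 6 members. The searched letters were TATAAA (a form of the TATA box), TGANTCA (AP-1), GCCNNNGGC (AP-2) and TTGCNNAA (C/EBP), each on both strands, and capitals mark matches.
Krt10, chr10:84839111-84839410, minus strand: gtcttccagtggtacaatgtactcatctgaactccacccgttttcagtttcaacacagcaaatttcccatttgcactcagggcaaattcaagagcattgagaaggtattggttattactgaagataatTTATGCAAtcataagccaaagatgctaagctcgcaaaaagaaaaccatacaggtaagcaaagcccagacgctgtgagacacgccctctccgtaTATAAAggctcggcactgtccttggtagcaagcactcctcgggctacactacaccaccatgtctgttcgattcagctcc
Krt2, chr7:134826687-134826986, minus strand: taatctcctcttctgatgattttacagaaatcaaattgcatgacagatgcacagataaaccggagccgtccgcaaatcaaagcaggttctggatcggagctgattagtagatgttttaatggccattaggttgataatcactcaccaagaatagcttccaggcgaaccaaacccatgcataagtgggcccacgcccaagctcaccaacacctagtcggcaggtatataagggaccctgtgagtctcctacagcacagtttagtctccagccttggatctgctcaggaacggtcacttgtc
Krt10 held 1 TATAAA match, beginning 29 bases before the start, and 1 TTGCNNAA match, beginning 122 bases before it. Krt2 held none of the 4, and forms of the TATA box other than TATAAA were not searched for. Among the other members in the table, Krt9 held 1 GCCNNNGGC match, and Krt5 and Krt24 held none. Over 27457 promoters of the same length, 14.3% held TATAAA, 7.33% TGANTCA, 15.7% GCCNNNGGC and 10.5% TTGCNNAA. A match is a run of letters and not a shown binding site, and its absence says only that these letters are not in this window.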

How the data were processed

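Hindlimb footpad skin was measured in 4 libraries, 1 for each of days 0, 3, 6 and 9. Gene counts deposited by the authors are, per the file headers, whole-number sums of tag copies over each gene, and tags seen once were left out. A second deposited column, headed TPM, is CPM: the authors divided each count by the tags seen at least 2 times, with no length term. The build was Rnor_6.0 per the submitters' processing notes. The aligner and annotation were not given in the sources used here. The deposited tag lists, 1 tag a line, were used to count tags.

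Tables were joined by gene identifier, and TMM factors (edgeR 4.0.16) were 1.01, 1.02, 0.989 and 0.978. Ratios used a prior count of 0.5 and exact Clopper-Pearson intervals. Values of 0 entered the ratios and calls with the prior count of 0.5. A floor of 3 counts was used only for folds stated as at least. With 1 library a day no test across samples was possible, so genes were called by size. The rule was checked on simulated counts that held counting error only, so the check says nothing of variation between animals. The members, lists, likeness rule and the rule for named genes (all members, the list rows furthest apart, 3 nearest genes) were chosen with earlier results of these data known. Of the ratios, 5 were chosen after their values were seen, Tgm3, Lce1f and Klk7 were named after their values were seen, and Aqp5, Krt18, Myh4 and the rows described as keratins 6A and 71 were named as markers or keratins beside the members. Alternatives covered scaling, count floor, prior count, fold, interval, tags and the authors' value. A result of the basal anchorage list is not reported here.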

Additional observations from a re-analysis of the deposited data

How the results depend on the processing

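No paired analysis was possible because each day had 1 library. The count of members past the rule stayed within 1.5 times its value in 67 pairs of setting and comparison, and 8 went past it. This compares totals and not directions. For day 6 against day 3, 3 members higher and 1 lower became 1 higher and 2 lower on the total of all tags. The authors' value gave the same split, and both settings are among the 67. At 3-fold the count of members was 2 on day 3, 1 for day 6 against day 3 and 0 for day 9 against day 6. With 200 counts as the floor it was 1 on day 6. With the whole interval past 2-fold it was 2 for day 6 against day 3. For day 9 against day 6 it was 2 at 1.5-fold, with 10 counts as the floor and with no floor. Of the log2 ratios of the members and the keratin 5 row under the alternatives, 423 kept their side of the rule, 21 lost a call, 6 gained one and none turned direction while called. Part of this was fixed in advance. Settings of floor, fold and interval leave each log2 ratio as it was, so no direction could turn under them. A setting that counts the keratin 5 row as Krt5 changes neither these ratios nor their calls. A factor set without the muscle, sweat gland and fibroblast markers and genes at 0 on day 6 alone, chosen after seeing the data, changed no member's call.

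The count of all genes called, in the order day 3, day 6 and day 9 against day 0, day 6 against day 3 and day 9 against day 6, was 877, 1090, 1129, 491 and 739. It was 1918, 2362, 2315, 1388 and 1807 with a floor of 10 counts, 2229, 2722, 2632, 1652 and 2098 with none, and 272, 320, 353, 141 and 218 with 200. It was 2024, 2138, 2289, 1264 and 1687 at 1.5-fold, 251, 479, 364, 185 and 287 at 3-fold, and 336, 539, 474, 219 and 321 with the whole interval past 2-fold. The floor changes how many genes are admitted, and the fold and interval settings change the limit that an admitted gene must pass.

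Krt10 over Krt14 on days 0, 3, 6 and 9 was 125, 72.1, 66.4 and 39.9 with the most abundant tags alone, and 1.42, 0.604, 0.948 and 0.773 with the keratin 5 row added to Krt14. The members held 0.540, 0.195, 0.325 and 0.199% of the tags that occurred 2 or more times, and 1.18, 0.414, 0.749 and 0.439% of gene counts without the 20 most abundant other genes. Counting error limits Krt9 on days 6 and 9 and each minor tag.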

Other observations

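Among the marker lists, the 3 melanocyte genes with a row were all highest on day 0 and at 0 on day 9. Pmel, a pigment granule protein, had 31, 6, 2 and 0 counts on days 0, 3, 6 and 9, and Tyrp1, an enzyme of melanin synthesis, had 33, 5, 0 and 0. The summed count of the 3 melanocyte markers with a row was 66, 11, 2 and 0. Each of these genes stayed under the 50 counts that the size rule asks for. Red blood cell markers summed to 35, 1529, 104 and 595 counts, nearly all of them Hbb, a beta globin, with 35, 1510, 104 and 579. No relation between these genes and the keratins was tested.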
